A study of Mus musculus with 18 samples.

Results

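The genes described here are 37 genes of endothelial and lymphatic identity, measured in melanoma allografts of mice. They were chosen by name: every probe set whose single annotated gene symbol is on the list was taken. All 37 had a probe set (62 in all, of 45037 on the array), out of 18193 genes with one. Of the 37, 34 passed the filter on low signal and were tested, and Prox1, Esm1 and Rasip1 did not. The list covers junction proteins, the TIE receptors and their ligands, surface and matrix proteins, Notch and apelin genes, transcription factors and lymphatic markers.

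Endothelial cells line blood and lymph vessels. They are joined by VE-cadherin (Cdh5) and claudin-5 (Cldn5), and their identity is held by transcription factors of the ETS, SOX and bHLH families. The receptor TIE2 (Tek) is activated by angiopoietin-1 from cells around the vessel, whereas angiopoietin-2, released by the endothelium itself, often opposes it during vessel remodelling. Tip cells of growing sprouts carry the Notch ligand DLL4 and release apelin. Lymphatic endothelium is set apart by the transcription factor PROX1, with LYVE1 and podoplanin on its surface.

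Allografts were raised from the mouse melanoma line iNRAS-475 by intradermal injection into nude mice, which lack a normal thymus. NRAS is a small GTPase upstream of the kinases RAF, MEK and ERK, and doxycycline kept the NRAS transgene of this single line on. All mice received doxycycline at 2 mg/ml in the drinking water, and tumours reached 200 to 500 mm3 after 6 weeks. There were 6 distinct tumours in each of 3 groups. Vehicle tumours stayed on doxycycline and received vehicle. MEK inhibitor tumours stayed on doxycycline and received AZD6244 (selumetinib, an inhibitor of MEK1 and MEK2) at 100 mg/kg. In NRAS-off tumours doxycycline was withdrawn, so the loss of NRAS and the removal of doxycycline itself cannot be told apart. Both treatments lasted 4 days. The vessels are those of the host, while the labels give neither the age nor the sex of the hosts. Whole tumour pieces were measured, so a change in the number of endothelial cells and a change in RNA per cell cannot be told apart, and neither can the cell type that made a transcript.

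Each value below is the intensity of a gene's brightest probe set, on the authors' normalized linear scale. Changes are differences of group means of log2(intensity + 16), given ± SE from limma fitted over 15005 genes, with 6 tumours per group. The added 16 makes the change of a dim gene smaller than its fold. A gene is said to have risen or fallen when its Benjamini-Hochberg adjusted p over all genes was under 0.05. Both comparisons with vehicle share the same 6 vehicle tumours, so their values stand side by side and are not independent.

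Turning NRAS off was accompanied by higher levels of most of these genes. Of the 34 tested, 29 rose and Notch4 and Lyve1 fell against vehicle, while Eng, Apln and Dll4 did not pass. Over all genes, 31.8% rose and 27.5% fell. All 6 NRAS-off tumours lay above all 6 vehicle tumours for 21 members, against 20.8% of all genes, and below them for 1 member, against 18.4%. The median change of the members was 0.81, with a range from −1.54 to 1.90, beside a median of 0.0036 over all genes. After MEK inhibition, 7 members rose and 5 fell, where 24.3% and 20.9% of all genes did, and 22 did not pass. The groups did not overlap for 1 member that was higher and 3 that were lower, against 12.8% and 12.7% of all genes. The median change of the members was 0.05, with a range from −2.06 to 1.19, beside 0.0089 over all genes.

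The direct comparison of both treated arms does not use the vehicle means, but shares its tumours with the comparisons above. There, 29 members were higher in NRAS-off than in MEK inhibitor tumours and 1, Eng, was lower, where 24.3% and 22.7% of all genes were. For 23 members every NRAS-off tumour lay above every MEK inhibitor tumour, against 15.0% of all genes, and for 0 the reverse held, against 13.3%. The median difference was 0.75 for the members and −0.0090 over all genes. For 22 members the pattern was the same: they rose when NRAS was turned off, did not pass after MEK inhibition, and were higher in the first arm than in the second. Vwf, Erg, Ptprb and Angpt1 rose in both arms and were higher in NRAS-off tumours.

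**Figure D1:**
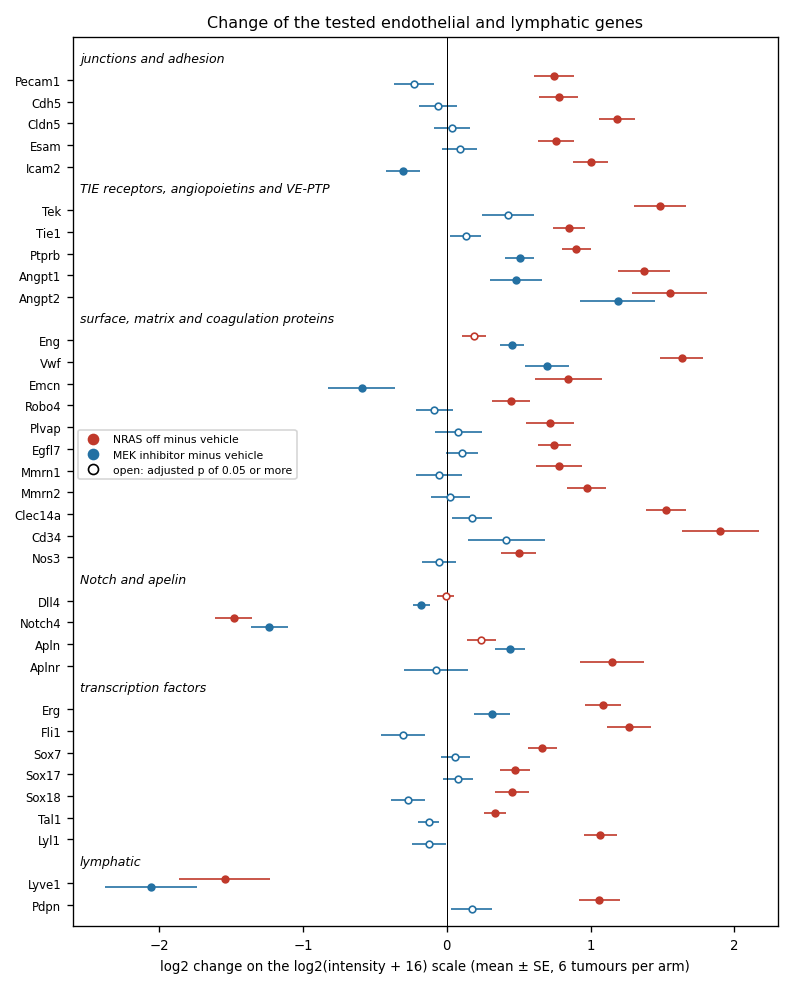
Log2 change of the 34 tested genes on the log2(intensity + 16) scale (x axis, mean ± SE, 6 tumours per arm), grouped by role, for NRAS-off (red) and MEK inhibitor (blue) tumours against vehicle, with open points for an adjusted p of 0.05 or more. Most red points lie between 0.34 and 1.90, most blue points lie near 0, and Notch4 and Lyve1 lie far to the left in both arms.

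The first group of members holds endothelial cells together. All 5 junction and adhesion genes rose in NRAS-off tumours, by 0.75 to 1.18. Cdh5, the adhesion protein of endothelial junctions, lay between 102 and 205 in vehicle tumours (median 135), between 206 and 300 in NRAS-off tumours (median 251) and between 104 and 162 in MEK inhibitor tumours (median 133). The lowest NRAS-off tumour lay just above the highest vehicle tumour, and the MEK inhibitor tumours lay within the vehicle range. The change was 0.78 ± 0.13 (adjusted p = 5.02e-05) with NRAS off and −0.06 ± 0.13 (adjusted p = 0.751) with the inhibitor. Cldn5, which seals tight junctions, ranged from 80.7 to 154 in vehicle (median 115), from 241 to 406 in NRAS-off (median 262) and from 104 to 133 in MEK inhibitor tumours (median 115). Its rise of 1.18 ± 0.12 was the largest of the 5, and NRAS-off replicate 1 stood far above its group.

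Pecam1 (CD31), an adhesion molecule used to stain vessels, ranged from 46.4 to 84.9 in vehicle, from 84.3 to 147 in NRAS-off and from 37.2 to 62.4 in MEK inhibitor tumours. It rose by 0.75 ± 0.14 with NRAS off, although the lowest NRAS-off tumour lay just under the highest vehicle tumour. Esam, another junction protein, rose by 0.76 ± 0.12 (178 to 307 in vehicle, 308 to 498 in NRAS-off). Icam2, which guides leukocytes across the endothelium, went opposite ways in the arms. Its intensity was 52.2 to 81.6 in vehicle (median 62.2), 122 to 175 in NRAS-off (median 142) and 31.0 to 63.0 in MEK inhibitor tumours (median 50.5). It rose by 1.00 ± 0.12 with NRAS off and fell by 0.30 on the log2 scale after MEK inhibition (SE 0.12, adjusted p = 0.0459). That fall no longer passed when any 1 of 8 tumours was left out (vehicle 2, 3, 4 or 6, NRAS-off 1, MEK inhibitor 2, 3 or 5), with changes of −0.32 to −0.21 and adjusted p from 0.0512 to 0.122, or in a fit of these 2 groups alone (adjusted p = 0.054).

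All 5 genes of the TIE system rose with NRAS off, by 0.85 to 1.55, and 3 of 5 rose with the MEK inhibitor. Tek, the angiopoietin receptor TIE2, lay between 54.0 and 126 in vehicle tumours (median 85.5), between 186 and 396 in NRAS-off tumours (median 260) and between 89.6 and 154 in MEK inhibitor tumours (median 112). It rose by 1.48 ± 0.18 with NRAS off (adjusted p = 8.83e-07), and every NRAS-off tumour was above every other tumour. After MEK inhibition the change was 0.42 ± 0.18 (adjusted p = 0.0627). That change did pass without vehicle 6, NRAS-off 1 or MEK inhibitor 2, at 0.42 to 0.53 with adjusted p from 0.0209 to 0.0435, and in a fit of these 2 groups alone (adjusted p = 0.0357).

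Tie1, the partner receptor that binds no angiopoietin well on its own, ranged from 31.9 to 45.2 in vehicle, 60.0 to 106 in NRAS-off and 29.2 to 52.6 in MEK inhibitor tumours. It rose by 0.85 ± 0.11 with NRAS off and changed by 0.13 ± 0.11 (adjusted p = 0.361) with the inhibitor. Ptprb encodes VE-PTP, the phosphatase that dampens TIE2. Its values were 163 to 255 in vehicle, 319 to 437 in NRAS-off and 231 to 313 in MEK inhibitor tumours, so the arms formed ascending ranges with only the inhibitor arm overlapping vehicle. It rose by 0.90 ± 0.10 and by 0.51 ± 0.10, and the arms differed by 0.39 ± 0.10 (adjusted p = 0.00314).

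Both ligands were on the list. Angpt1, the activating ligand, lay between 56.4 and 174 in vehicle (median 77.7), between 219 and 319 in NRAS-off (median 234) and between 104 and 178 in MEK inhibitor tumours (median 118). It rose by 1.37 ± 0.18 with NRAS off. Its rise of 0.48 ± 0.18 with the inhibitor (adjusted p = 0.0383) did not pass without any 1 of vehicle 1, 2, 3 or 5 or MEK inhibitor 2, 4 or 6 (0.38 to 0.48, adjusted p from 0.0580 to 0.0997). A second Angpt1 probe set showed no such difference, with a change of −0.05 for the inhibitor (adjusted p = 0.557) and −0.00049 for NRAS off (adjusted p = 0.995).

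Angpt2, the context-dependent ligand released by endothelium, was the member with the largest rise after MEK inhibition. It lay between 219.8 and 596 in vehicle tumours (median 434), between 1075 and 1277 in NRAS-off tumours (median 1172) and between 380 and 1500 in MEK inhibitor tumours (median 1056). NRAS-off tumours formed a narrow band above all vehicle tumours, whereas MEK inhibitor tumours were spread widely, with replicate 1 inside the vehicle range and replicate 4 above every NRAS-off tumour. The changes were 1.55 ± 0.26 (adjusted p = 4.45e-05) and 1.19 ± 0.26 (adjusted p = 0.00102), and the difference of 0.36 ± 0.26 between arms did not pass (adjusted p = 0.276). A second Angpt2 probe set rose by 0.57 and 0.50.

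**Figure D2:**
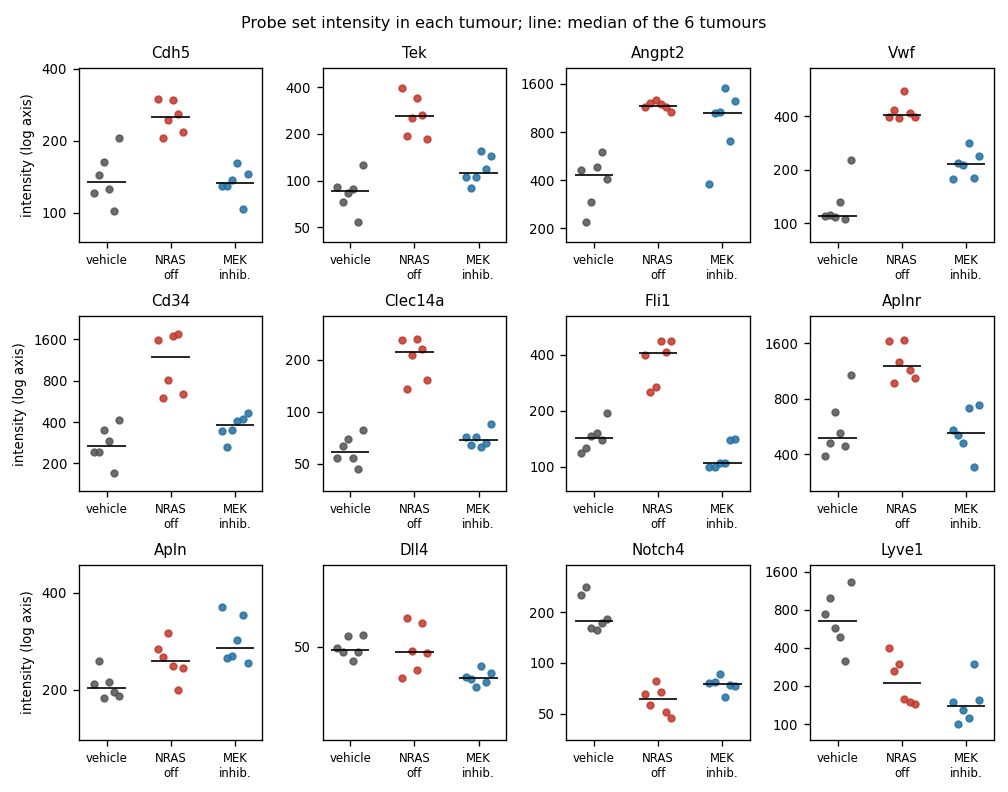
Intensity of the probe set (y axis, log scale) in each of the 18 tumours for 12 of the genes, with 1 point per tumour and a line at the median of the 6 tumours. NRAS-off tumours (red) lie above all vehicle tumours (grey) for Cdh5, Tek, Angpt2, Vwf, Cd34, Clec14a and Fli1, both treated groups lie below vehicle for Notch4, and only 1 NRAS-off tumour lies above the lowest vehicle tumour for Lyve1.

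Of the 13 surface, matrix and coagulation genes, 11 were tested, and 10 of these rose with NRAS off. Cd34, a sialomucin of endothelium that is also carried by blood progenitors and fibroblasts, had the largest rise of all members. Its intensity was 169 to 412 in vehicle (median 266), 594 to 1743 in NRAS-off (median 1191) and 262 to 464 in MEK inhibitor tumours (median 380). The NRAS-off tumours split: replicates 1, 4 and 5 lay at 1572, 1705 and 1743, and replicates 2, 3 and 6 at 594, 809 and 641. The change was 1.90 ± 0.27 (adjusted p = 5.26e-06), against 0.41 ± 0.27 (adjusted p = 0.229) with the inhibitor.

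Vwf, the clotting protein stored in endothelial granules and platelets, lay between 105 and 228 in vehicle (median 110), between 391 and 556 in NRAS-off (median 407) and between 177 and 285 in MEK inhibitor tumours (median 216). Apart from vehicle replicate 6, at 228, the arms did not overlap with vehicle or each other. Vwf rose by 1.63 ± 0.15 (adjusted p = 2.62e-08) and by 0.70 ± 0.15 (adjusted p = 0.000912), and was higher with NRAS off than with the inhibitor by 0.94 ± 0.15. Clec14a, a lectin of sprouting endothelium that binds MMRN2, ranged from 46.9 to 78.2 in vehicle, from 135 to 264 in NRAS-off and from 63.0 to 84.8 in MEK inhibitor tumours. Its rise of 1.52 ± 0.14 with NRAS off was also seen on its second probe set (0.89).

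The matrix protein Mmrn2 (multimerin-2) rose by 0.97 ± 0.14, from 203 to 380 in vehicle to 453 to 601 in NRAS-off tumours, and all 4 of its probe sets rose. Its relative Mmrn1 rose by 0.78 ± 0.16, and here the NRAS-off tumours split in another way than for Cd34: replicates 1, 2 and 3 lay at 134, 124 and 117, and replicates 4, 5 and 6 at 57.7, 69.5 and 59.9, just above the highest vehicle tumour at 54.8. Egfl7, a matrix protein secreted by endothelium, rose by 0.75 ± 0.11 and all 4 of its probe sets rose. Plvap, which forms the diaphragms of fenestrae and caveolae, rose by 0.72 ± 0.17. Nos3, the endothelial nitric oxide synthase, rose by 0.50 ± 0.12, and Robo4, a guidance receptor that stabilises vessels, by 0.45 ± 0.13. With the MEK inhibitor the changes of Mmrn2, Mmrn1, Egfl7, Plvap, Nos3 and Robo4 lay between −0.09 and 0.11 and did not pass.

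Emcn and Eng departed from this. Emcn (endomucin), a mucin of venous and capillary endothelium, lay between 111 and 247 in vehicle (median 159), between 224 and 366 in NRAS-off (median 300.4) and between 48.4 and 169 in MEK inhibitor tumours (median 91.5). It rose by 0.85 ± 0.23 with NRAS off. With the inhibitor it fell by 0.59 on the log2 scale (SE 0.23, adjusted p = 0.0467), a call that ended when any 1 of 12 tumours was left out (vehicle 1, 4, 5 or 6, NRAS-off 1, 3, 4 or 6, MEK inhibitor 1, 2, 3 or 5), with changes of −0.62 to −0.42 and adjusted p from 0.0501 to 0.126. The arms differed by 1.44 ± 0.23.

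Eng (endoglin), a co-receptor for BMP9 and TGF-beta, was the 1 member higher with the inhibitor than with NRAS off. Its values were 514 to 707 in vehicle (median 553), 543 to 721 in NRAS-off (median 679) and 711 to 873 in MEK inhibitor tumours (median 779). Only the inhibitor arm lay wholly above vehicle. The rise there was 0.45 ± 0.08 (adjusted p = 0.00022), and the change with NRAS off was 0.19 ± 0.08 (adjusted p = 0.0603). The latter passed without vehicle 3 or NRAS-off 1 (0.24 to 0.25, adjusted p from 0.00973 to 0.0162). The second Eng probe set, in contrast, gave 0.08 and 0.14 and passed in neither arm. The dim genes Esm1 and Rasip1, below the filter, had medians of 19.3 and 19.5 in vehicle, 19.2 and 26.1 in NRAS-off and 15.7 and 19.8 in MEK inhibitor tumours.

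The Notch and apelin genes were mixed. Notch4, a Notch receptor largely restricted to endothelium, was the only member other than Lyve1 to fall in both arms. It lay between 157 and 282 in vehicle (median 178), between 47.0 and 77.8 in NRAS-off (median 60.6) and between 62.8 and 85.6 in MEK inhibitor tumours (median 74.7). Every treated tumour was below every vehicle tumour. The change was −1.48 ± 0.13 (adjusted p = 1.13e-08) with NRAS off and −1.23 ± 0.13 (adjusted p = 3.27e-07) with the inhibitor, and the difference of −0.25 ± 0.13 between arms did not pass (adjusted p = 0.124), although it did in a fit of these 2 groups alone (adjusted p = 0.0431). A second, dimmer probe set also fell (−0.23 and −0.27 on the log2 scale).

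Dll4, the Notch ligand of tip cells, had 46.0 to 53.3 in vehicle (median 49.1), 41.9 to 58.6 in NRAS-off (median 48.5) and 39.9 to 44.8 in MEK inhibitor tumours (median 41.9). It did not pass with NRAS off (−0.0072 ± 0.059, adjusted p = 0.927). It fell by 0.18 on the log2 scale with the inhibitor (SE 0.06, adjusted p = 0.0178), where all 6 tumours lay below vehicle, but its second probe set did not pass (−0.03, adjusted p = 0.734). The difference of 0.17 ± 0.06 between arms did not pass without NRAS-off 2 or 5 (0.13 to 0.14, adjusted p from 0.0588 to 0.0591).

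Apln (apelin), the peptide of tip cells, and its receptor Aplnr, found on veins and sprout stalks, are a ligand and receptor pair. Aplnr lay between 394 and 1073 in vehicle (median 492), between 975 and 1654 in NRAS-off (median 1208) and between 340 and 735 in MEK inhibitor tumours (median 522). It rose by 1.15 ± 0.22 with NRAS off, changed by −0.07 ± 0.22 with the inhibitor, and differed by 1.22 ± 0.22 between the arms (adjusted p = 0.000151). Apln lay between 188 and 246 in vehicle (median 202), between 199 and 301 in NRAS-off (median 245) and between 241 and 360 in MEK inhibitor tumours (median 270). It rose by 0.44 ± 0.10 (adjusted p = 0.00173) with the inhibitor. With NRAS off its change was 0.24 ± 0.10 (adjusted p = 0.0525), which passed without any 1 of vehicle 2, NRAS-off 5 or MEK inhibitor 1, 5 or 6 (0.24 to 0.30, adjusted p from 0.0181 to 0.0478). The difference of −0.20 ± 0.10 between the arms did not pass (adjusted p = 0.124).

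All 7 transcription factors rose with NRAS off, by 0.34 to 1.27, and all 7 were higher there than with the inhibitor. Fli1, an ETS factor of endothelial and blood cells, had the largest difference between the arms of all members. Its intensity was 119 to 195 in vehicle (median 143), 253 to 478 in NRAS-off (median 409) and 99.9 to 142 in MEK inhibitor tumours (median 104). It rose by 1.27 ± 0.15 (adjusted p = 7.72e-07), changed by −0.31 ± 0.15 with the inhibitor (adjusted p = 0.112) and differed by 1.57 ± 0.15 between the arms (adjusted p = 8.7e-08). The change with the inhibitor passed in a fit of these 2 groups alone (adjusted p = 0.0407) and without NRAS-off 2 and MEK inhibitor 6, the 2 tumours with the most keratinocyte transcript (−0.36, adjusted p = 0.0416). The second Fli1 probe set rose by 0.91 with NRAS off. Erg, the ETS factor closest to Fli1, lay between 68.5 and 94.0 in vehicle (median 77.1), between 113 and 222 in NRAS-off (median 200.3) and between 83.8 and 126 in MEK inhibitor tumours (median 107).

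Erg rose by 1.09 ± 0.13 with NRAS off. Its rise of 0.31 ± 0.13 with the inhibitor (adjusted p = 0.0499) ended without any 1 of 13 tumours (vehicle 1 to 5, NRAS-off 1, 2, 5 or 6, MEK inhibitor 2, 4, 5 or 6), with changes of 0.26 to 0.34 and adjusted p from 0.0507 to 0.116. A second Erg probe set changed by 0.07 and 0.0057 and passed in neither arm.

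The SOXF factors, which act with the ETS factors in arterial and lymphatic endothelium, rose by 0.46 to 0.66. Sox7 (24.3 to 31.1 in vehicle, 40.7 to 77.4 in NRAS-off) rose by 0.66 ± 0.10, but its second probe set did not (−0.04, adjusted p = 0.642). Sox17 (62.3 to 79.1 in vehicle, 82.1 to 151 in NRAS-off) rose by 0.47 ± 0.10. Its second probe set rose by 0.99 with NRAS off and also by 0.54 with the inhibitor (adjusted p = 0.00374), where the brighter one gave 0.08 ± 0.10. Sox18 (152 to 255 in vehicle, 223 to 322 in NRAS-off) rose by 0.46 ± 0.12. With the inhibitor it changed by −0.27 ± 0.12 (adjusted p = 0.0694), and passed without vehicle 1, vehicle 5 or MEK inhibitor 4 (−0.34 to −0.32, adjusted p from 0.0257 to 0.0466).

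Tal1 and Lyl1 are related bHLH factors of blood and endothelial cells. Lyl1 lay between 139 and 235 in vehicle (median 153), between 300.4 and 428 in NRAS-off (median 352) and between 115 and 180 in MEK inhibitor tumours (median 150.1), and rose by 1.07 ± 0.12 with NRAS off. Tal1 (30.6 to 49.9 in vehicle, 48.9 to 65.0 in NRAS-off) rose by 0.34 ± 0.07. With the inhibitor Tal1 changed by −0.13 ± 0.07 (adjusted p = 0.185), which passed without vehicle 3 (−0.18, adjusted p = 0.0356).

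The promoters of genes that moved in opposite directions can be set side by side. RefSeq promoter windows of build GRCm38.p6, from 250 bases before to 50 bases after the annotated start, were matched by symbol for 20 of the 37 genes. They are shown for Tek and Tie1, the receptor pair that rose with NRAS off, and for Notch4, which fell in both arms. Capitals mark AGGAAG or CGGAAG, forms of the site that ETS factors such as ERG and FLI1 bind. They also mark TGANTCA, the AP-1 site bound by FOS and JUN proteins. Matches on either strand are marked (so CTTCCT is AGGAAG on the other strand). The windows lie at chr4:94739039-94739338 (plus strand, Tek), chr4:118489800-118490099 (minus strand, Tie1) and chr17:34564045-34564344 (plus strand, Notch4).
Tek: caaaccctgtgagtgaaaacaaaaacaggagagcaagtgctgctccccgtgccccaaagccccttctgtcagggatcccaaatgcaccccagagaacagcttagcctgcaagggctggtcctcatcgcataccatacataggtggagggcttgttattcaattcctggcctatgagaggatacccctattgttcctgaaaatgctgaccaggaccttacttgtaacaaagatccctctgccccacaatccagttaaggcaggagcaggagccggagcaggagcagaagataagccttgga
Tie1: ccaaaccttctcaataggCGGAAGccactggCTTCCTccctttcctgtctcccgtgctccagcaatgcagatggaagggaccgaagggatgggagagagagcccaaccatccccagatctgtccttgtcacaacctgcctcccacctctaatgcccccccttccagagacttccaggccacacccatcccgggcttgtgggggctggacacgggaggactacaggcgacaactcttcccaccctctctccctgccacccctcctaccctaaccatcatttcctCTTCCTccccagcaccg
Notch4: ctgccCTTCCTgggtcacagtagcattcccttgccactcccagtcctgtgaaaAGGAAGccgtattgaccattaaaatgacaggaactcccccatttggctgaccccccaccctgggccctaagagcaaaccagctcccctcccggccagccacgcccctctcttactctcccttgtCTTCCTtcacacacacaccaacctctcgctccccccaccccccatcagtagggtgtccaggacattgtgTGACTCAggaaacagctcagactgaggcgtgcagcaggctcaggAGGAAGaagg
Tek held 0 matches to either ETS form, Tie1 held 3 and Notch4 held 4. Shorter GGAA stretches with other flanks, such as ttcc (GGAA on the other strand) in the Tek window, were not counted. The 20 genes had 26 windows, of which 12 held either ETS form, beside 46.5% of all 32851 windows, so the members' share was near that of all windows. An AP-1 match was in 1 of the 26, that of Notch4, beside 7.81% of all windows. A match of letters is a description and does not show binding.

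Of 3 lymphatic members, 2 were tested, and they parted. Lyve1, a hyaluronan receptor of lymphatic endothelium that tissue macrophages also carry, fell in both arms, and the most of all members with the inhibitor. With NRAS off its log2 change was the lowest, while the ratio of group means was lower for Notch4 (0.301) than for Lyve1 (0.316). It lay between 315 and 1336 in vehicle (median 657), between 145 and 396 in NRAS-off (median 211) and between 101 and 299 in MEK inhibitor tumours (median 140). All MEK inhibitor tumours lay below all vehicle tumours, and in the NRAS-off arm replicate 1, at 396, lay above the lowest vehicle tumour. The change was −1.54 ± 0.32 (adjusted p = 0.000347) with NRAS off and −2.06 ± 0.32 (adjusted p = 3.37e-05) with the inhibitor, and its second probe set fell (−1.19 and −1.27 on the log2 scale). The difference of 0.51 ± 0.32 between the arms did not pass (adjusted p = 0.2).

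Pdpn (podoplanin), which fibroblasts and tumour cells can also carry, lay between 606 and 1105 in vehicle (median 771), between 1298 and 2180 in NRAS-off (median 1686) and between 735 and 1079 in MEK inhibitor tumours (median 978). It rose by 1.06 ± 0.14 with NRAS off and changed by 0.17 ± 0.14 with the inhibitor. Prox1, the defining lymphatic factor, was below the filter on its 3 probe sets, with medians of 15.95 in vehicle, 15.6 in NRAS-off and 15.1 in MEK inhibitor tumours on the brightest.

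Other genes of lymphatic vessels were mixed. Of 10 tested, 3 rose and 5 fell with NRAS off, where 31.8% and 27.5% of all genes did. With the inhibitor 1 rose and 4 fell, against 24.3% and 20.9%. Reln, a secreted glycoprotein, fell, with log2 changes of −3.24 and −1.02, Foxc2, a factor of lymphatic valves, fell (−1.54 and −1.64 on the log2 scale), and the transcription factor Maf rose by 1.32 and 0.70. Flt4, the VEGF-C receptor VEGFR3, was higher in NRAS-off than in MEK inhibitor tumours by 0.77 ± 0.09.

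**Figure D3:**
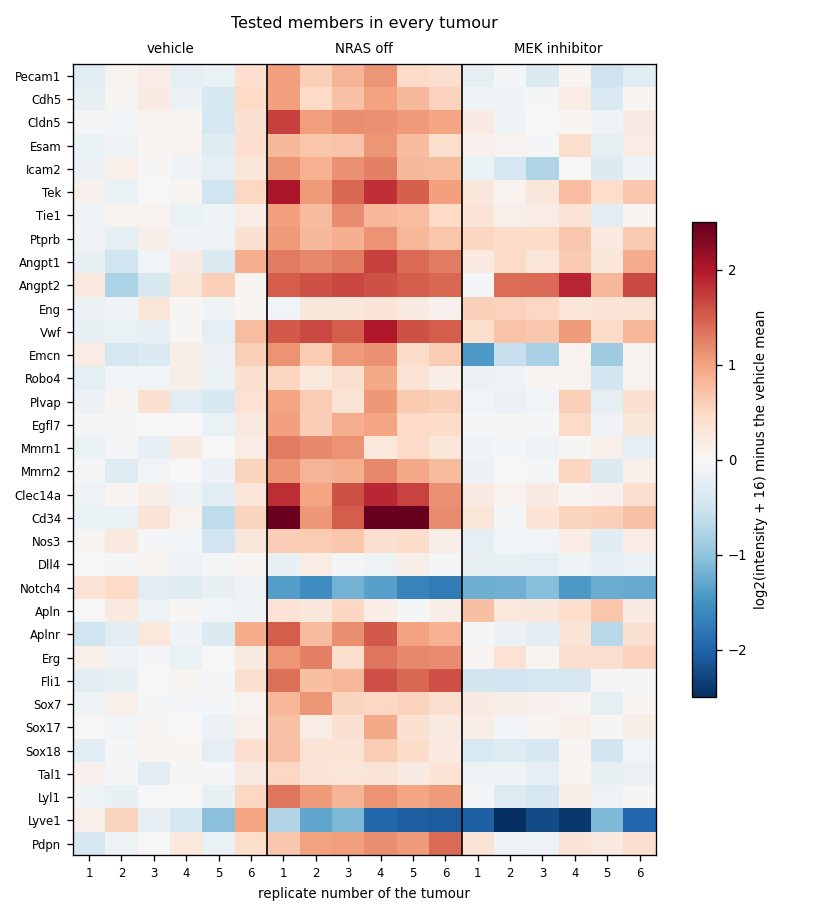
Log2(intensity + 16) minus the vehicle mean (colour, red above and blue below) for the 34 tested genes (rows, ordered by role) in each of the 18 tumours (columns, by group and replicate number). The NRAS-off columns are red for most genes, Notch4 and Lyve1 are blue in both treated groups, and vehicle replicate 6 is the reddest vehicle tumour.

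Within each group, 1 tumour was the highest or lowest for many of the genes. Vehicle replicate 6 was the highest vehicle tumour for 27 of the 34 genes, with a median deviation of 0.39 (log2) from the group mean, and vehicle replicate 5 the lowest for 14. In the NRAS-off arm replicate 4 was the highest for 15 genes and replicate 6 the lowest for 16. In the MEK inhibitor arm replicate 4 was the highest for 18 and replicate 5 the lowest for 13. Without vehicle 6, 29 members still rose with NRAS off, while with the inhibitor 8 rose and 3 fell. Using all 18 tumours, 31.8% of all genes rose with NRAS off, and 24.3% rose and 20.9% fell with the inhibitor. The count of 5 members that fell with the inhibitor also came to 3 without vehicle 4, NRAS-off 1 or MEK inhibitor 2, 3 or 5.

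Several probe sets of a gene gave the same picture in most cases. Of the 62 probe sets, 53 passed the filter and were tested among 27656. With NRAS off 41 rose and 4 fell, where 27.8% and 28.6% of all probe sets did. With the inhibitor 10 rose and 7 fell, against 20.9% and 21.9%. Between the arms 40 were higher with NRAS off and 1 was lower, against 21.3% and 21.2%. The genes whose probe sets disagreed were Erg, Sox7, Sox17, Angpt1, Eng and Dll4, as described above.

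Endothelial genes outside the 37 were read from lists. No list was tested against the shares of all genes. Of 25 other genes of endothelium in general, 16 rose and 3 fell with NRAS off (median 0.39), where 31.8% and 27.5% of all genes did. With the inhibitor 2 rose and 9 fell (median −0.10), against 24.3% and 20.9%. Ramp2, the partner of the adrenomedullin receptor, rose by 1.48 ± 0.15 with NRAS off, from 139 to 273 in vehicle to 399 to 771, and Tmem204 rose by 1.36 ± 0.17. Hhex, a homeobox factor, was higher in NRAS-off than in MEK inhibitor tumours by 1.53 ± 0.11. Like Notch4, some fell in both arms: Bcl6b, a transcriptional repressor, fell, with log2 changes of −1.44 and −1.06 (380 to 1010 in vehicle, 151 to 197 and 199 to 252 in the treated arms). Cd93, a receptor that binds MMRN2, also fell in both arms (−0.75 and −1.20 on the log2 scale). It lay at 1540 to 3044 in vehicle, 1045 to 1481 in NRAS-off and 777 to 926 in MEK inhibitor tumours. Sox13 rose in both arms, by 0.95 ± 0.10 with NRAS off and 0.93 ± 0.10 with the inhibitor.

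The VEGF system, the main signal for vessel growth, was split. Of its 10 tested genes, 5 rose and 3 fell with NRAS off, where 31.8% and 27.5% of all genes did. With the inhibitor 2 rose and 3 fell, against 24.3% and 20.9%. Kdr, the signalling receptor VEGFR2, lay at 147 to 238 in vehicle, 382 to 537 in NRAS-off and 128 to 235 in MEK inhibitor tumours, a rise of 1.22 ± 0.12 and a change of −0.04 ± 0.12. Flt1, the decoy-like receptor VEGFR1, ran the other way, from 1182 to 3218 in vehicle to 136 to 194 and 250.5 to 372, and fell, with log2 changes of −3.52 and −2.67. The growth factor Vegfa lay between 498 and 665 in vehicle, between 198 and 254 in NRAS-off and between 465 and 631 in MEK inhibitor tumours, and fell by 1.36 with NRAS off. Pgf, a ligand of VEGFR1, fell in both arms (−1.01 with NRAS off and −0.60 with the inhibitor on the log2 scale). The co-receptor Nrp1 rose in both, by 0.99 ± 0.11 and 0.91 ± 0.11.

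Of 15 arterial and Notch pathway genes, 7 rose and 7 fell with NRAS off, where 31.8% and 27.5% of all genes did. With the inhibitor 2 rose and 6 fell, against 24.3% and 20.9%. The ligand Jag1 fell, with log2 changes of −1.28 and −1.46, and so did the target Hes1, with −1.40 and −0.87. Hey1, another Notch target, also fell in both arms (−0.84 with NRAS off and −1.21 with the inhibitor on the log2 scale). Smad6, an inhibitor of BMP signalling, fell (−1.51 and −1.02 on the log2 scale). Acvrl1 (ALK1), the receptor that works with endoglin, was higher with NRAS off than with the inhibitor by 0.69 ± 0.08. Hey2 and Cxcr4 were also higher there, by 0.96 ± 0.14 and 1.19 ± 0.15.

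Of 8 genes of veins and activated endothelium, 6 rose and 0 fell with NRAS off at this threshold in limma. The shares of all genes were 31.8% and 27.5%. After MEK inhibition 1 rose and 2 fell, against 24.3% and 20.9%. The adhesion molecule Vcam1 rose by 1.44 ± 0.13 and Icam1 by 1.20 ± 0.13 with NRAS off. Icam1, like its relative Icam2, fell with the inhibitor, by 0.44 on the log2 scale. Selp (P-selectin) rose by 0.84 ± 0.22 with NRAS off and fell by 0.58 on the log2 scale with the inhibitor. Ackr1, the chemokine carrier of venules, rose by 1.30 ± 0.13 with NRAS off. Vwa1 rose in both arms, by 0.96 ± 0.10 with NRAS off and 0.88 ± 0.10 with the inhibitor.

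Of 17 genes of tip cells, 9 rose and 6 fell with NRAS off, where 31.8% and 27.5% of all genes did. With the inhibitor 6 rose and 6 fell, against 24.3% and 20.9%. Igfbp3 fell, with log2 changes of −4.23 and −1.93, and the urokinase receptor Plaur fell (−1.90 and −1.94 on the log2 scale). Adm (adrenomedullin) rose in both arms, by 0.54 ± 0.17 with NRAS off and 0.97 ± 0.17 with the inhibitor. Among 17 other factors of the ETS, GATA, KLF and FOX families, 7 rose and 4 fell with NRAS off (31.8% and 27.5% of all genes). With the inhibitor 4 rose and 6 fell (24.3% and 20.9% of all genes). Lmo2, which bridges TAL1 or LYL1 to GATA factors, rose by 1.57 ± 0.15 with NRAS off (245 to 349 in vehicle, 583 to 1050 in NRAS-off) and differed by 1.71 ± 0.15 between the arms. Foxc1 fell in both arms (−1.58 and −1.35 on the log2 scale), as did Klf4 (−0.96 and −1.05). Mef2c rose by 1.00 ± 0.09 with the inhibitor, while its change of 0.04 ± 0.09 with NRAS off did not pass. Of 8 genes around the angiopoietins, 5 rose and 2 fell with NRAS off, and 1 rose and 2 fell with the inhibitor, beside the same shares of all genes. Angpt4 rose by 0.96 ± 0.29, Svep1 by 1.39 ± 0.24 and Angptl4 by 1.31 ± 0.20 with NRAS off. With the inhibitor Angptl4 rose by 0.54 ± 0.20, and the integrins Itga5 and Itgb1 fell (−0.81 and −0.34 on the log2 scale). Both integrins also fell with NRAS off.

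Markers of other cell types moved in the same tumours. Their counts stand beside 31.8% of all genes that rose and 27.5% that fell with NRAS off. With the inhibitor those shares were 24.3% and 20.9%. The summed intensity of 6 defining endothelial genes (Pecam1, Cdh5, Tek, Tie1, Esam and Cldn5) was 500 to 922 in vehicle, 1098 to 1736 in NRAS-off and 584 to 858 in MEK inhibitor tumours. Of 15 macrophage genes, 13 rose with NRAS off and 12 fell with the inhibitor, and the sum was 28303 to 46473, 75151 to 96319 and 12975 to 30549. Of 13 fibroblast genes, 11 rose and 2 fell with NRAS off and 7 rose and 1 fell with the inhibitor, with sums of 89906 to 108640, 203260 to 243940 and 136830 to 145480. All 10 skeletal muscle genes rose in both arms, with sums of 3808 to 18275, 33719 to 56039 and 20970 to 49404. Of 13 pericyte and smooth muscle genes, 7 rose and 2 fell with NRAS off and 3 rose and 3 fell with the inhibitor.

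Vehicle replicate 6, the highest for most members, was also the highest vehicle tumour for the macrophage, fibroblast and muscle sums, and MEK inhibitor replicate 4 the highest of its arm for the muscle sum. Lyve1 fell with NRAS off, where 13 of 15 macrophage genes rose, and with the inhibitor, where 12 of 15 fell. Vwf rose in both arms. Of 8 tested genes of megakaryocytes and platelets, 2 rose and 4 fell with NRAS off. In the inhibitor arm 0 of these rose and 3 fell (limma, where 24.3% of all genes rose). Mast cell genes (6 of 9 rose, 7 of 9 fell), adipocyte genes (3 of 6 and 1 of 6 rose) and melanocytic genes (4 of 6 and 2 of 6 rose) also moved in the NRAS-off and inhibitor arms, while the 7 proliferation genes fell with NRAS off and rose with the inhibitor. The keratinocyte sum was 957 to 1192 in 5 NRAS-off tumours and 30322 in replicate 2, and reached 1621 in MEK inhibitor replicate 6. Without those 2 tumours 29 members rose and 2 fell with NRAS off, and 5 rose and 6 fell with the inhibitor. Of 3 tested erythroid genes, 0 passed in either arm. The part of these cells in the members' changes was not tested.

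**Figure D4:**
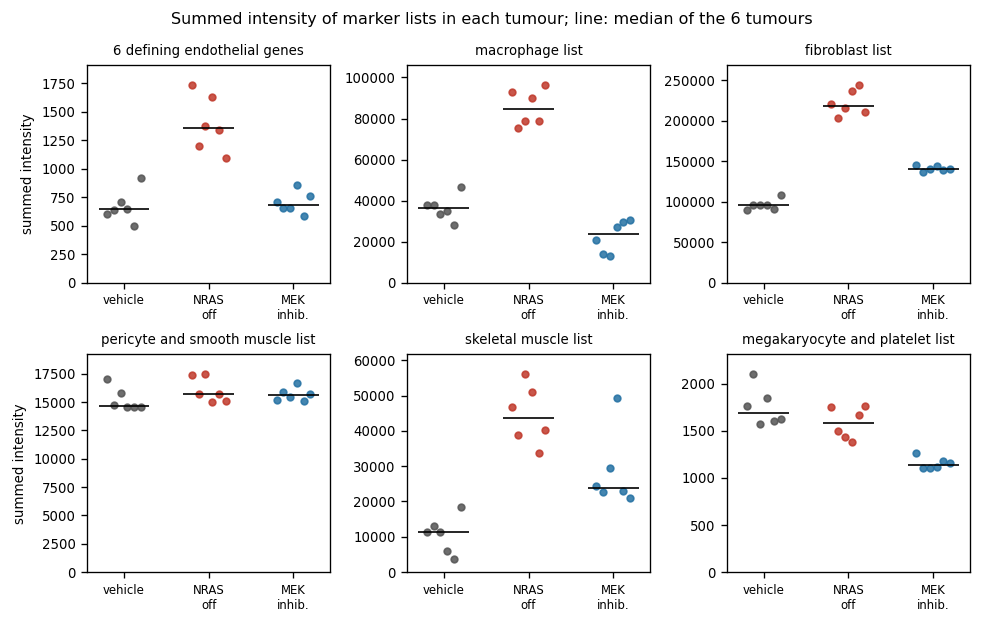
Summed intensity (y axis, from 0) of 6 defining endothelial genes and of 5 lists of other cell types in each tumour, with 1 point per tumour and a line at the median of the 6 tumours. The endothelial, macrophage, fibroblast and muscle sums of all NRAS-off tumours lie above all vehicle tumours, and the endothelial sum of the MEK inhibitor tumours, 584 to 858, lies within the vehicle range of 500 to 922.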

How the data were processed

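Per the labels' protocols, RNA of skin-free tumour pieces near 50 mg was preserved in RNAlater and isolated with Trizol, and 10 ug went onto each Affymetrix array (1 colour, biotin). The authors deposited normalized probe set intensity values on a linear scale. MAS5 and RMA, neither with a version, stand in the submitters' processing notes, and which of them made the table is not given in the sources used here. Array medians lay between 72.3 and 78.5. No label or header gave a batch or date. With arrays, the number of tumours limits the precision.

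The platform annotation gave 1 symbol to 34945 of 45037 probe sets, several to 932 and none to 9160. For each of 18193 genes the brightest probe set by mean was used. Genes whose mean lay at or below the 25th percentile (intensity 23.5) were left out, which left 15005. Values were transformed to log2(intensity + 16) and limma 3.58.1 (R 4.3.3) was fitted to all 3 groups at once (15 residual degrees of freedom, prior 3.46). Calls needed a Benjamini-Hochberg adjusted p under 0.05 over all genes of a contrast. A second fit used 27656 probe sets. The fit was tested on simulated data.

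All member genes are described, and of each pathway list the members with the largest called change. The members and lists were chosen with earlier results of these data known. Alternatives changed the filter, probe set choice, scaling, pseudocount, prior, array weights, groups fitted, thresholds, replicate block and tumours left out. A fit without the 2 tumours highest in keratinocyte genes was added after seeing the data. Promoter windows came from RefSeq. Figures were drawn with matplotlib 3.10.9.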

Additional observations from a re-analysis of the deposited data

Results flagged for a closer look

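Each of the 34 tested genes was looked at in each of the 3 groups for a single tumour far from the other 5, and 7 of 102 groups held one, where chance gives about 1 in 20. Vehicle replicate 6 stood out high for 3 genes: Vwf at 228 (others 105 to 131), Mmrn2 at 380 (others 203 to 254) and Lyl1 at 235 (others 139 to 159). In the NRAS-off arm Cldn5 was at 406 in replicate 1 (others 241 to 274), Vwf at 556 in replicate 4 (others 391 to 435) and Erg at 113 in replicate 3 (others 187 to 222). In the MEK inhibitor arm Sox7 was at 20.9 in replicate 5 (others 29.0 to 34.0). The sums of macrophage, fibroblast and skeletal muscle genes were also highest in vehicle replicate 6 among vehicle tumours, and their part in these values was not tested.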

How the results depend on the processing

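Over settings that left out no single tumour, 1429 of 1512 values of single genes kept their call, 73 lost it, 10 gained one and 0 reversed. With 1 tumour left out 1780 of 1836 kept it, 42 lost it, 14 gained one and 0 reversed. In 3 and 14 values, respectively, the sign changed where neither value passed. With a 2-fold threshold added, 13 members rose with NRAS off (6.28% of all genes), 1 rose and 2 fell with the inhibitor (1.85% and 2.09%), and between the arms 9 were higher with NRAS off and 0 lower (4.49% and 2.75%, with 30 members at an unadjusted p under 0.05 in limma). With adjusted p under 0.01, 2 fell with the inhibitor (16.1% of all genes) and 0 were lower between the arms (17.2%). Members that fell with the inhibitor numbered 3 with no filter (17.3% of all genes) and 3 with a pseudocount of 64 (21.0%). In a fit of only the groups compared, 2 were lower between the arms (22.9%). Leaving out 1 tumour gave 29 to 30 rises and 2 falls with NRAS off, 5 to 8 rises and 3 to 6 falls with the inhibitor, and 28 to 29 higher and 1 lower between the arms. The shares of all genes with all 18 tumours were 31.8% and 27.5%, 24.3% and 20.9%, and 24.3% and 22.7%. Deviations of same-numbered tumours in unlike groups correlated at −0.14 to 0.27, with 8 of 18 pairs over 0.1. Tumours of unlike number were not compared, so whether replicate numbers pair tumours cannot be decided from these values. With the replicate block, 29 members rose and 2 fell with NRAS off (31.3% and 26.8% of all genes). Under it 8 rose and 5 fell with the inhibitor (24.1% and 20.7%), and 29 were higher and 1 lower between the arms (24.1% and 22.1%). In the inhibitor comparison the block added calls for Tek (0.42, adjusted p = 0.0485) and Fli1 (−0.31, adjusted p = 0.0322) and ended that of Icam2 (−0.30, adjusted p = 0.0536). The calls near the threshold after MEK inhibition (Emcn, Erg, Icam2, Angpt1) are the least firm, and signals near the filter limit what can be said of Prox1, Esm1 and Rasip1.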
